A study of Mus musculus with 6 samples.

Results

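The brush border hydrolases are digestive enzymes anchored in the apical membrane of enterocytes, the absorptive cells of the small intestine. The 10 members examined here were chosen by name, as the rows of the gene count table whose Ensembl mouse IDs carry the symbols Sis, Mgam, Lct, Treh, Alpi, Anpep, Enpep, Dpp4, Mep1a and Mep1b, out of 31227 genes in all. All 10 were found once each. All 10 also passed the filter on low counts in a test across 15503 genes, and the lowest level of any member in any library was 13.7 CPM (counts scaled to library size with TMM).

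Bulk RNA was sequenced from organoids of mouse intestine, cultures of gut epithelium that hold both stem cells and their differentiated progeny. There were 3 groups of 2 libraries each: Smad4-deficient organoids given TGF-β (labelled Smad4 KO+TGFb, 0.5 nM), Smad4-deficient organoids without it (Smad4 KO), and wild-type organoids (WT). Smad4 encodes the common SMAD, with which the receptor-activated SMADs of TGF-β and BMP signalling form complexes that regulate genes. All groups were grown with EGF (50 ng/ml), Noggin (100 ng/ml) and R-spondin1 (500 ng/ml), so an inhibitor of BMP ligands, Noggin, was present in the controls too. Every title gives 48 h, while the protocol mentions both 48 h and 2 days of TGF-β. How Smad4 was inactivated, which stretch of intestine the organoids came from, the strain and the age of the animals, and whether replicates were separate cultures were not stated in the labels. The p-values therefore measure only the spread between these libraries, which may be technical, and a difference in organoid line between Smad4 KO and WT cannot be told apart from genotype.

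Libraries held 40.55 to 50.7 M count units, or about 10.1 to 12.7 M fragments if each fragment added 4 units. Smad4 itself had 25.19 and 29.52 CPM in Smad4 KO+TGFb, 21.66 and 23.07 CPM in Smad4 KO, and 99.37 and 109.5 CPM in WT, which put Smad4 KO 4.67-fold under WT. The tissue label was checked against 9 enterocyte markers outside the list (Fabp1, Fabp2, Apoa1, Apob, Vil1, Cdhr5, Krt20, Rbp2 and Prap1), all of which were above 0 in every group. Of 5 fibroblast markers, Col1a2, Col3a1 and Dcn were at 0 in all libraries and the sum stayed between 0 and 0.479 CPM. Of 3 endothelial markers Cdh5 and Kdr were at 0, and 5 leukocyte markers summed to between 3.1 and 4.61 CPM. The 5 gastric markers summed to between 0.916 and 1.94 CPM, with Muc5ac at 0. Kidney tubule cells also express several of the hydrolases. Of 4 kidney tubule markers Slc22a6 and Umod were at 0, and the sum was 5.76 to 10.6 CPM in Smad4 KO+TGFb, 0.297 to 0.814 CPM in Smad4 KO and 0.137 to 0.477 CPM in WT. In Smad4 KO+TGFb that sum was Lrp2 alone, and Slc34a1 was at 0 there.

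Brush border enzymes finish the digestion of sugars and peptides at the cell surface, next to the carriers that take up the products. Their genes are known to be switched on as enterocytes leave the crypt and to depend on CDX2, HNF4 and GATA4 factors. Lactase is known as the enzyme of suckling animals, whereas sucrase-isomaltase and trehalase are known to increase at weaning. In bulk RNA, fewer enterocytes and less RNA per enterocyte cannot be told apart.

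Over the whole family, levels were highest in Smad4 KO, and most members were lower with TGF-β. The summed level of the 10 members was 3779 and 3827 CPM in Smad4 KO+TGFb, 6228 and 6257 CPM in Smad4 KO, and 3013 and 3081 CPM in WT. Sis, Mgam and Alpi made up most of that sum in every group. The 5 peptidases alone summed to 458.6 and 450.1 CPM in Smad4 KO+TGFb, 778.5 and 771 CPM in Smad4 KO, and 456.1 and 456.5 CPM in WT. Of the 10 genes, 8 were highest in Smad4 KO and 2 in WT (Anpep and Dpp4). The lowest group was Smad4 KO+TGFb for 6 members and WT for 4 (Lct, Enpep, Mep1b and Alpi). The 2 libraries of each group stood close together, though they differed by more than sampling noise (chi-square per degree of freedom 5.46 to 6.48 over genes). The gap between replicates was at most 15.4% of their mean (Mep1a in WT), and for every member the 3 groups did not overlap. How many of all genes were separated or ordered in these ways was not counted, so neither is given as particular to the members.

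**Figure D1:**
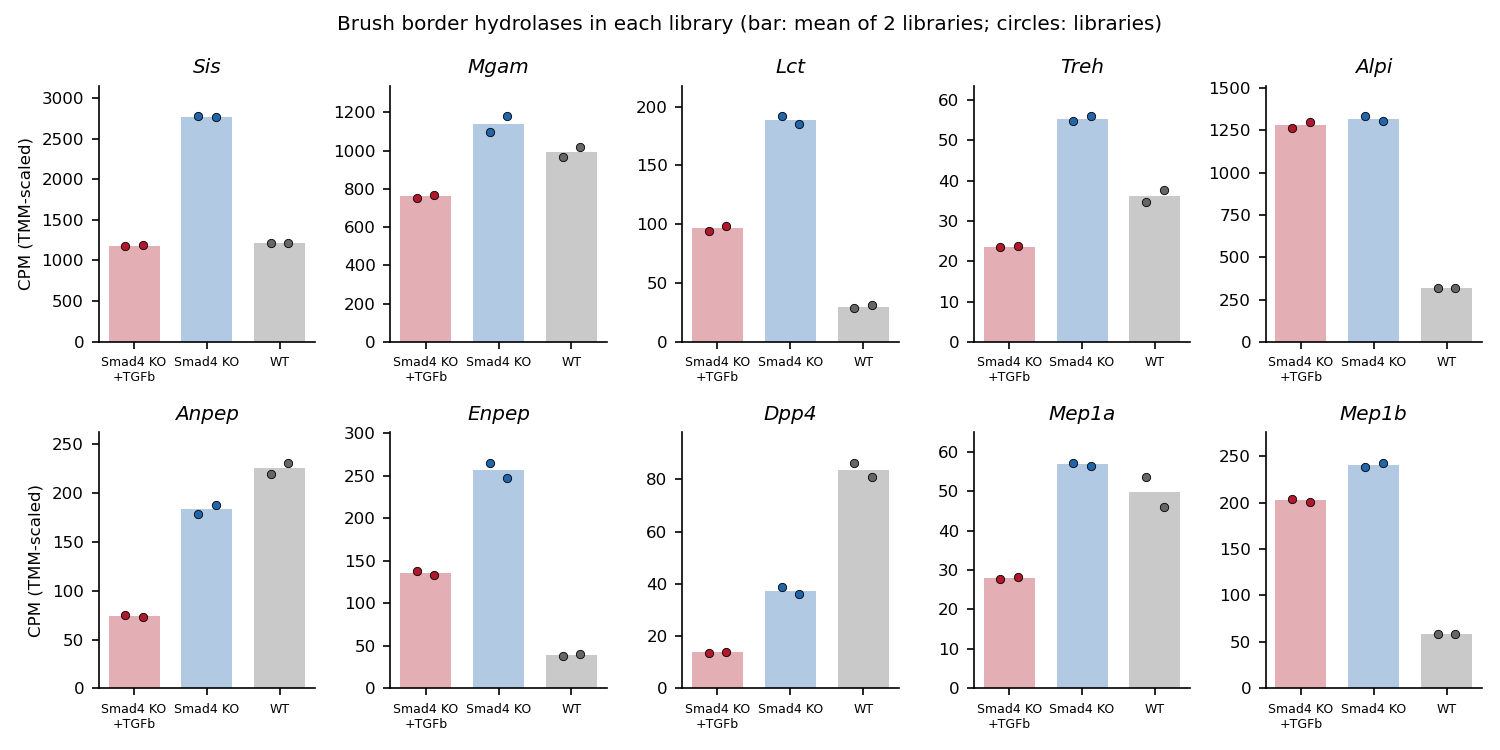
TMM-scaled CPM of each brush border hydrolase, with 1 panel a gene and a y axis that starts at 0. Circles are the 2 libraries of a group and bars their mean; Lct, Enpep, Mep1b and Alpi stay above WT in Smad4 KO+TGFb, while Anpep and Dpp4 are highest in WT.

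Against WT, Smad4 KO organoids had more transcript of 7 members and less of 2. Enpep rose 6.59-fold, Lct 6.31-fold, Alpi 4.16-fold, Mep1b 4.12-fold and Sis 2.28-fold, with smaller rises of Treh (1.53-fold) and Mgam (1.15-fold). The rise of Mgam was lost in several alternatives. Dpp4 fell 2.23-fold and Anpep 1.23-fold, and Mep1a did not pass (log2 fold change 0.19 ± 0.09 SE, adjusted p = 0.17). The median log2 fold change of the 10 members was 0.90, beside -0.021 over all 15503 genes tested. Over all genes 30.3% were called, 16.9% higher and 13.4% lower (edgeR's quasi-likelihood test, Benjamini-Hochberg adjusted p under 0.05). Of the genes called, 55.7% were higher with TMM scaling, 46% under upper quartile scaling and 42.1% when libraries were scaled by their totals only.

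With TGF-β added to Smad4 KO organoids, 9 of the 10 members were lower than in Smad4 KO and 0 were higher. Dpp4 fell 2.71-fold, Anpep 2.47-fold, Sis and Treh 2.34-fold each, Mep1a 2.03-fold, Lct 1.95-fold and Enpep 1.89-fold. Mgam fell 1.49-fold and Mep1b 1.19-fold, while Alpi did not pass (log2 fold change -0.04 ± 0.02 SE, adjusted p = 0.33). The count of members higher was 0 in edgeR also at an unadjusted p under 0.05, and 0 in DESeq2. Their median log2 fold change was -0.99, beside -0.008 over all genes, of which 16.3% were called, 8.48% lower and 7.78% higher. Genes called higher made up 47.8% of the genes called, and 57.4% with library totals only. Any difference in time in culture between these groups cannot be told apart from TGF-β.

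Set against WT, Smad4 KO+TGFb organoids had 4 members higher and 5 lower. Alpi was 4.04-fold, Enpep 3.49-fold, Mep1b 3.47-fold and Lct 3.23-fold higher. Dpp4 was 6.05-fold, Anpep 3.04-fold, Mep1a 1.78-fold, Treh 1.53-fold and Mgam 1.3-fold lower. Sis did not pass (log2 fold change -0.04 ± 0.02 SE, adjusted p = 0.10). The median log2 fold change of the members was -0.21, beside -0.021 over all genes. Over all genes, 20.7% were called higher and 19% lower, so the share of members called (9 of 10) stands beside 39.7% of all genes. In all 3 comparisons the genes tested include genes at lower levels than any member (13.7 CPM or more). The shares over all genes are therefore not matched to the members for level. Genes called higher made up 52.3% of the genes called, against 44% under upper quartile scaling and 47% with library totals only. In this comparison Smad4 and TGF-β both differ. No WT group was given TGF-β, so the changes with TGF-β in Smad4 KO cannot be set against those in WT. The 3 comparisons share libraries, so a member's values in different comparisons are not independent.

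**Figure D2:**
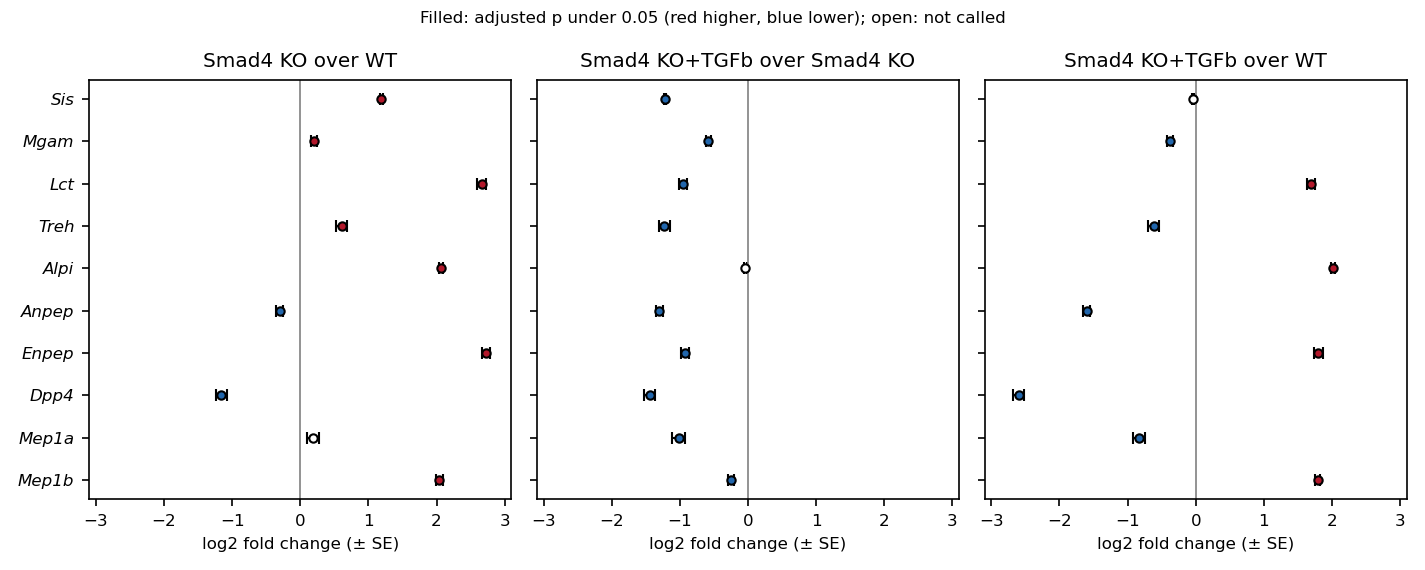
Log2 fold change (x axis) of each member in the 3 comparisons, with bars of 1 SE derived from edgeR's F statistic. Filled circles passed at an adjusted p under 0.05; 7 are higher and 2 lower in Smad4 KO over WT, and 9 are lower in Smad4 KO+TGFb over Smad4 KO.

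The carbohydrases split starch fragments and disaccharides. Sis, sucrase-isomaltase, cuts sucrose and the branch points of starch, and carries both enzymes in 1 protein. Its gene lies on chromosome 3 (72888557 to 72967863, minus strand, GRCm38). Sis had 1182 and 1185 CPM in Smad4 KO+TGFb, 2774 and 2759 CPM in Smad4 KO, and 1212 and 1218 CPM in WT. Smad4 KO was thus above both other groups, which lay close to each other (a ratio of 0.974). The rise over WT (log2 fold change 1.19 ± 0.02 SE, adjusted p = 2e-07) and the fall with TGF-β (-1.22 ± 0.02 SE, adjusted p = 1.3e-06) were both over 2-fold. The difference between Smad4 KO+TGFb and WT passed under upper quartile scaling (log2 fold change -0.11, adjusted p = 0.0024) and with library totals only (-0.08, adjusted p = 0.0075).

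Mgam, maltase-glucoamylase, is the closest relative of Sis and releases glucose from the ends of starch fragments. The gene (chromosome 6, 40628831 to 40769123, plus strand) had 754.6 and 769.6 CPM in Smad4 KO+TGFb, 1095 and 1180 CPM in Smad4 KO, and 964.5 and 1020 CPM in WT. Its groups kept the order of Sis over a much narrower range. The rise of Mgam in Smad4 KO over WT was small (log2 fold change 0.20 ± 0.04 SE, adjusted p = 0.016) and missed the threshold in several alternatives. Its adjusted p was 0.065 on leaving out Smad4 KO replicate 2, 0.082 on leaving out WT replicate 1, 0.072 under upper quartile scaling and 0.11 with library totals only. The fall with TGF-β (log2 fold change -0.58 ± 0.04 SE, adjusted p = 0.0004) passed in all 15 alternatives. Per kilobase of exon, the ratio of Sis to Mgam within a library was 1.83 and 1.8 in Smad4 KO+TGFb, 2.95 and 2.73 in Smad4 KO, and 1.47 and 1.39 in WT.

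Lct encodes lactase, which cuts milk sugar. Lct (chromosome 1, 128284756 to 128328318, minus strand) had 94.44 and 98.76 CPM in Smad4 KO+TGFb, 191.8 and 185.3 CPM in Smad4 KO, and only 28.84 and 30.96 CPM in WT. All libraries of the Smad4-deficient groups were above WT, and Lct was still higher than WT with TGF-β (log2 fold change 1.69 ± 0.06 SE, adjusted p = 6.7e-06). The log2 fold change was 2.66 ± 0.06 SE in Smad4 KO over WT (adjusted p = 1.9e-06) and -0.96 ± 0.06 SE in Smad4 KO+TGFb over Smad4 KO (adjusted p = 0.00019). Per kilobase, Lct stood at 0.0931 and 0.0971 of Sis in Smad4 KO+TGFb, at 0.0806 and 0.0783 in Smad4 KO, and at 0.0277 and 0.0296 in WT.

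Treh, trehalase, cuts the fungal and insect sugar trehalose. Treh (chromosome 9, 44673233 to 44686305, plus strand) had 23.58 and 23.71 CPM in Smad4 KO+TGFb, 54.77 and 56.02 CPM in Smad4 KO, and 34.78 and 37.72 CPM in WT. With TGF-β it was lower than in WT (log2 fold change -0.62 ± 0.08 SE, adjusted p = 0.0013). Its rise in Smad4 KO over WT had a log2 fold change of 0.61 ± 0.08 SE (adjusted p = 0.0018). The Treh exons share 2 bases with the opposite-strand gene Phldb1. The summed carbohydrases were 2054 and 2078 CPM in Smad4 KO+TGFb, 4115 and 4180 CPM in Smad4 KO, and 2240 and 2306 CPM in WT, with Sis and Mgam making up most of the sum.

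The 250 bases before the RefSeq start (GRCm38.p6) are shown for Sis and Lct, the carbohydrases that rose most in Smad4 KO. Capitals mark matches to the TATA box (TATAAA), a CDX motif (TTTATNG), an HNF4 motif (CAAAGTNCA) and a GATA motif (NGATAA), where N is any base and all but the TATA box were searched on both strands.
Sis, chr3:72967864-72968113, minus strand: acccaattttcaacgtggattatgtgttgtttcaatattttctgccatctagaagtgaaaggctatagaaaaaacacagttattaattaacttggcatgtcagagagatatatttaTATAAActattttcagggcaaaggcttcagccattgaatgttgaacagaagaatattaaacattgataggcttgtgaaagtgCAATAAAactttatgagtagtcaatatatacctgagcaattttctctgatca
Lct, chr1:128328319-128328568, minus strand: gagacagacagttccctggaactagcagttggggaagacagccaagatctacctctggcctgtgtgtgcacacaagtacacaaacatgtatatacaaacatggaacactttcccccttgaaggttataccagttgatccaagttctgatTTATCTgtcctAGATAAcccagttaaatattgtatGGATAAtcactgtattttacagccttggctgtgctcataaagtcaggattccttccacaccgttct
In Sis, the CDX match CAATAAA lay at positions -52 to -46 from the start (-1 is the base before it). The region just before the Sis start is known as a binding site of CDX2. Lct held 3 GATA matches, the farthest at -101 to -96. Among 32851 promoters of the same length, 7.59% held the TATA box, 9.81% the CDX motif, 1.19% the HNF4 motif and 22.5% the GATA motif. Of the 9 members with a promoter in the table, 3 held TATAAA, at -134 to -129 in Sis, -30 to -25 in Mgam and -227 to -222 in Dpp4. The CDX motif was found in 3 (Sis, Alpi and Dpp4), the HNF4 motif in 2 (Alpi and Treh) and the GATA motif in 5. A match describes letters and not a bound site.

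Alpi is intestinal alkaline phosphatase, which removes phosphate from lipopolysaccharide and nucleotides at the brush border. Alpi (chromosome 1, 87098002 to 87101606, minus strand) had 1266 and 1299 CPM in Smad4 KO+TGFb, 1334 and 1305 CPM in Smad4 KO, and 316.4 and 318.6 CPM in WT. Both Smad4-deficient groups lay far above WT (log2 fold change in Smad4 KO over WT 2.06 ± 0.03 SE, adjusted p = 1.7e-07), and Smad4 KO+TGFb stood at 0.972 of Smad4 KO. That ratio turned from below to above 1 when libraries were scaled by their totals (log2 fold change 0.01, adjusted p = 0.9). Alpi made up 33.7% of the family's summed CPM in Smad4 KO+TGFb, 21.1% in Smad4 KO and 10.4% in WT. Per kilobase, the ratio of Alpi to Sis was 3.42 and 3.5 in Smad4 KO+TGFb, 1.54 and 1.51 in Smad4 KO, and 0.834 and 0.836 in WT. Per kilobase of exon it was the highest member in Smad4 KO+TGFb (549 ± 9.9 CPM per kb, SD, n = 2) and in Smad4 KO (565 ± 8.7), while Sis was in WT (163 ± 0.55, against 136 ± 0.68 for Alpi). The promoter of Alpi is printed because this gene alone among the 10 missed the threshold after TGF-β.
Alpi, chr1:87101607-87101856, minus strand: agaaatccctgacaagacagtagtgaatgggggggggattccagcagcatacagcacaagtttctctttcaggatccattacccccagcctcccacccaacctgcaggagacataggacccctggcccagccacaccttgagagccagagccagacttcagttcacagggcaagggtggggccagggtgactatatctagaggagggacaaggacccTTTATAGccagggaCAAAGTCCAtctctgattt
It held a CDX match, TTTATAG, at -33 to -27 and the HNF4 match CAAAGTCCA at -19 to -11, and Treh was the other member with an HNF4 match.

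The peptidases trim peptides to amino acids and short peptides. Anpep, aminopeptidase N, and Enpep, aminopeptidase A, are related zinc enzymes that remove neutral and acidic residues from the amino end. Anpep (chromosome 7, 79821803 to 79861059, minus strand) had 75.05 and 73.55 CPM in Smad4 KO+TGFb, 178.5 and 187.9 CPM in Smad4 KO, and 220 and 231.1 CPM in WT. Enpep (chromosome 3, 129269175 to 129332720, minus strand) had 137.8 and 133.5 CPM in Smad4 KO+TGFb, 265.1 and 247.6 CPM in Smad4 KO, and 37.83 and 39.95 CPM in WT. Anpep was highest in WT and Enpep lowest there, with no overlap between groups. Both fell with TGF-β (log2 fold change -1.30 ± 0.05 SE for Anpep, adjusted p = 4.2e-05, and -0.92 ± 0.06 SE for Enpep, adjusted p = 0.0002). Between Smad4 KO and WT, Anpep fell (-0.30 ± 0.05 SE, adjusted p = 0.0066) and Enpep rose (2.72 ± 0.06 SE, adjusted p = 1.7e-06). Within a library, the ratio of Enpep to Anpep per kilobase was 1.61 and 1.59 in Smad4 KO+TGFb, 1.31 and 1.16 in Smad4 KO, and 0.151 and 0.152 in WT. Scaling between libraries does not enter such a ratio.

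Dpp4, dipeptidyl peptidase 4, removes dipeptides after proline or alanine and is known for inactivating incretin hormones. Dpp4 (chromosome 2, 62330073 to 62412231, minus strand) had 13.67 and 13.93 CPM in Smad4 KO+TGFb, 38.66 and 36.18 CPM in Smad4 KO, and 86.32 and 80.75 CPM in WT. It fell at both steps, with a log2 fold change of -1.16 ± 0.08 SE in Smad4 KO over WT (adjusted p = 0.00012) and -1.44 ± 0.08 SE in Smad4 KO+TGFb over Smad4 KO (adjusted p = 0.00012). Among the members Dpp4 and Anpep were the ones lower than WT in both Smad4-deficient groups. Per kilobase, the ratio of Dpp4 to Anpep was 0.119 and 0.124 in Smad4 KO+TGFb, 0.142 and 0.126 in Smad4 KO, and 0.257 and 0.229 in WT. An antisense gene, Gm13561, overlaps 3.67% of the Dpp4 exons but had 35 units over all 6 libraries, against 591 or more for Dpp4 in each library.

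The promoters of the 3 exopeptidases are shown to set the members that fell in Smad4 KO (Anpep and Dpp4) beside the one that rose most (Enpep).
Anpep, chr7:79848211-79848460, minus strand: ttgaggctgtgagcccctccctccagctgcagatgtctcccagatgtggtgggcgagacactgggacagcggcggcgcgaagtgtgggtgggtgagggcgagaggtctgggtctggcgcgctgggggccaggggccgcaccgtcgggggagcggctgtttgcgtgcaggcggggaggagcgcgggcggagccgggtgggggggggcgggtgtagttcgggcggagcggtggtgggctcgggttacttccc
Dpp4, chr2:62412232-62412481, minus strand: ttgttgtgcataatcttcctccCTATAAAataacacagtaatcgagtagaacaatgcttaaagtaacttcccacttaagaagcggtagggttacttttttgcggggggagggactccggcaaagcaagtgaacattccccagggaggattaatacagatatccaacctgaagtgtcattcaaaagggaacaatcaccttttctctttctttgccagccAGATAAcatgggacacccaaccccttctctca
Enpep, chr3:129332750-129332999, minus strand: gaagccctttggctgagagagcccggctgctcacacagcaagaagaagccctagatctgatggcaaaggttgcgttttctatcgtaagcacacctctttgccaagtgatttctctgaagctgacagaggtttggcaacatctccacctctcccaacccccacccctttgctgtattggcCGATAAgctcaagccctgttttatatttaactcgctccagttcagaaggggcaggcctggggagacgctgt
The RefSeq start of Anpep lies inside the GENCODE gene, which reaches farther upstream. Which start the organoids used was not tested, so the Anpep sequence shown is that of the RefSeq start only. The Anpep promoter held none of the motifs searched and was 72.8% G and C, the highest of the 9 members with a promoter, against 52.4% in Enpep, 43.6% in Dpp4 and a median of 52.4% over all promoters. Dpp4 and Enpep each had 1 GATA match, AGATAA at -32 to -27 and CGATAA at -71 to -66. The CDX match of Dpp4, at -228 to -222, overlapped a TATA box match. Motifs for SMAD (CAGACA), TEAD (GGAATG) and AP-1 factors (TGANTCA) were searched as well. They were found in 2 (Lct and Mep1a), 2 (Dpp4 and Mgam) and 0 of the 9 members, and in 17.1%, 12.6% and 6.75% of all promoters.

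Meprins are zinc endopeptidases of the brush border built from α chains (Mep1a) and β chains (Mep1b), the second of which is also known to cut mucin 2. Mep1a (chromosome 17, 43474324 to 43502812, minus strand) had 27.65 and 28.34 CPM in Smad4 KO+TGFb, 57.24 and 56.39 CPM in Smad4 KO, and 53.72 and 46.05 CPM in WT. Mep1b (chromosome 18, 21061923 to 21100199, plus strand) had 204.4 and 200.8 CPM in Smad4 KO+TGFb, 238.9 and 243 CPM in Smad4 KO, and 58.21 and 58.66 CPM in WT. WT stood well below the other groups for Mep1b and close to Smad4 KO for Mep1a. Mep1b rose in Smad4 KO over WT (log2 fold change 2.04 ± 0.05 SE, adjusted p = 1.5e-06), and Mep1a was not called, with a range of 0.08 to 0.31 over the alternatives. After TGF-β, Mep1a fell by 1.02 ± 0.09 SE on the log2 scale (adjusted p = 0.00085). The fall of Mep1b by 0.25 ± 0.04 SE (adjusted p = 0.011) missed the threshold on leaving out Smad4 KO+TGFb replicate 1 (adjusted p = 0.062), Smad4 KO+TGFb replicate 2 (0.077) or Smad4 KO replicate 2 (0.061). Per kilobase, the ratio of Mep1b to Mep1a was 9.72 and 9.32 in Smad4 KO+TGFb, 5.49 and 5.67 in Smad4 KO, and 1.42 and 1.68 in WT. The ratios are given as values, with no test.

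**Figure D3:**
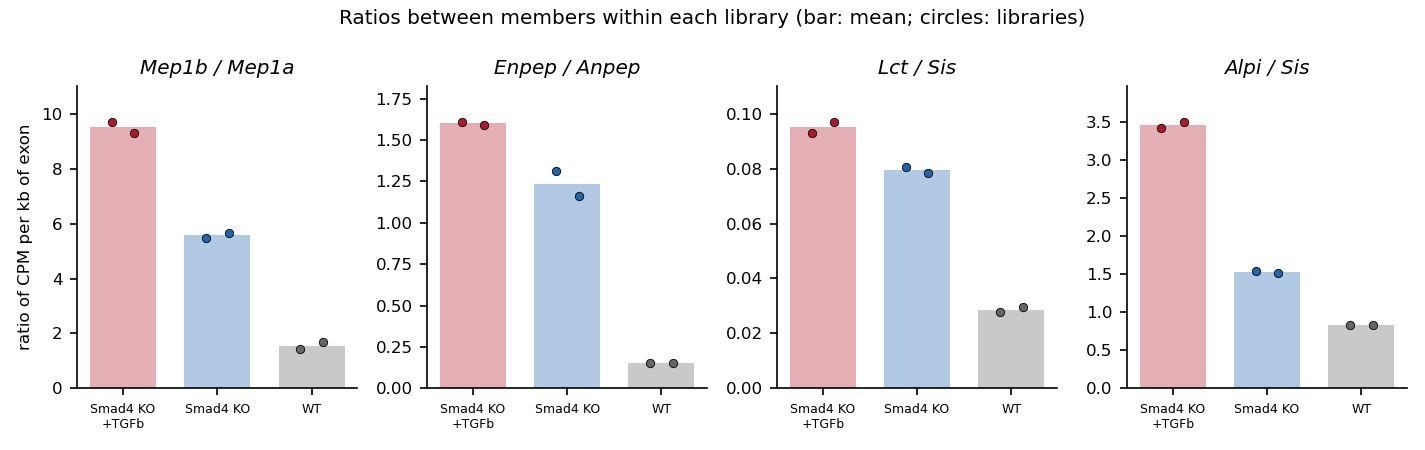
Ratio of CPM per kilobase of exon within each library for Mep1b over Mep1a, Enpep over Anpep, Lct over Sis and Alpi over Sis, on y axes that start at 0. Circles are libraries and bars their mean; these 4 ratios are highest in Smad4 KO+TGFb and lowest in WT, unlike Sis over Mgam and Dpp4 over Anpep, which are not drawn.

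Per kilobase of exon, the order of the members was the same in both Smad4-deficient groups and differed in WT. In Smad4 KO+TGFb it ran Alpi, Sis, Mgam, Mep1b, Enpep, Anpep, Lct, Treh, Mep1a and Dpp4, with means of 549 to 2.18 CPM per kb, and in Smad4 KO the same genes ran over 565 to 5.92 CPM per kb. In WT it ran Sis, Alpi, Mgam, Anpep, Mep1b, Treh, Mep1a, Dpp4, Enpep and Lct, over 163 to 4.67 CPM per kb. Neighbours did not overlap in any group, except Mep1a and Dpp4 in WT. With the longest transcript as the length, the order held in both Smad4-deficient groups, but in WT Mgam (148.7 and 157.2 CPM per kb) stood above Alpi (135.4 and 136.3), and Treh (16.98 and 18.42) overlapped Mep1a (18.11 and 15.52). Lct took the seventh place in both Smad4-deficient groups, against the last in WT, and Dpp4 took the last, against the eighth in WT.

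Other apical hydrolases, outside the 10 genes, were counted too. Of 17 listed, 16 were in the table and 14 passed the filter. In Smad4 KO over WT 10 rose and 0 fell (0 also at an unadjusted p under 0.05 and in DESeq2), with a median log2 fold change of 0.98. Akp3, a second intestinal alkaline phosphatase next to Alpi, had 191.9 and 192.7 CPM in Smad4 KO+TGFb, 331.1 and 344.9 CPM in Smad4 KO, and 222.6 and 213.7 CPM in WT. It fell with TGF-β (log2 fold change -0.81, adjusted p = 0.00011). Mme, neprilysin, and Asah2, a ceramidase, rose in Smad4 KO over WT (log2 fold changes 1.93 and 1.10) and fell in Smad4 KO+TGFb over Smad4 KO (-0.89 and -0.49). In that second comparison 9 of the 14 fell and 2 rose, Enpp3 (2.07-fold) and Nt5e (2.82-fold), which were named after their values were seen. Enpp3 and Nt5e are ectoenzymes that act on nucleotides.

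Carriers take up the sugars, amino acids and peptides that the hydrolases release. Of 11, 9 rose and 1 fell (Slc1a1, a glutamate carrier, log2 fold change -1.30) in Smad4 KO over WT, with a median of 1.19. With TGF-β, 8 fell and 0 rose relative to Smad4 KO (edgeR; 1 rose at an unadjusted p under 0.05 and 1 in DESeq2), with a median of -0.85. Slc5a1, the sodium-glucose carrier SGLT1, had 448 and 459.7 CPM in Smad4 KO+TGFb, 929.6 and 936.7 CPM in Smad4 KO, and 580.3 and 559.9 CPM in WT. In Smad4 KO+TGFb it was below WT, as were Treh and Mgam (log2 fold change -0.33, adjusted p = 0.0003). Slc2a5, the fructose carrier GLUT5, rose by 1.71 in Smad4 KO over WT and fell by 1.44 with TGF-β on the log2 scale, and Slc6a20a, a carrier of proline, rose by 2.01 and fell by 0.85.

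Transcription factors known to act on enterocyte genes were the last related list. Of 13, 7 rose and 0 fell in Smad4 KO over WT (0 also at an unadjusted p under 0.05 and in DESeq2), with a median log2 fold change of 0.18. With TGF-β 3 rose and 4 fell relative to Smad4 KO, with a median of -0.03. Hnf4a, the most abundant, had 986.6 and 988.1 CPM in Smad4 KO+TGFb, 1020 and 1002 CPM in Smad4 KO, and 902.5 and 898.4 CPM in WT. Klf5, which is active in crypts, rose in both (log2 fold changes 0.60 in Smad4 KO over WT and 0.20 in Smad4 KO+TGFb over Smad4 KO), and Elf3 rose with TGF-β (0.27, adjusted p = 0.011). Factors whose motifs appear above were named after their values were seen. Hnf4g had 117.4 and 112.6 CPM in Smad4 KO+TGFb, 215.1 and 227 CPM in Smad4 KO, and 68.83 and 68.98 CPM in WT. Hnf4g thus rose in Smad4 KO over WT (log2 fold change 1.68) and fell with TGF-β (-0.94). Cdx2 did not pass in Smad4 KO over WT (-0.09) or in Smad4 KO+TGFb over Smad4 KO (-0.02). Cdx1, the other CDX factor listed, rose by 0.17 in Smad4 KO over WT (adjusted p = 0.028) and fell by 0.28 with TGF-β (adjusted p = 0.0073). Gata4 rose by 0.48 in Smad4 KO over WT (adjusted p = 0.002) and fell by 0.26 with TGF-β (adjusted p = 0.036). Gata6 rose by 0.54 in Smad4 KO over WT (adjusted p = 0.0096) and did not pass with TGF-β (-0.34, adjusted p = 0.078).

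**Figure D4:**
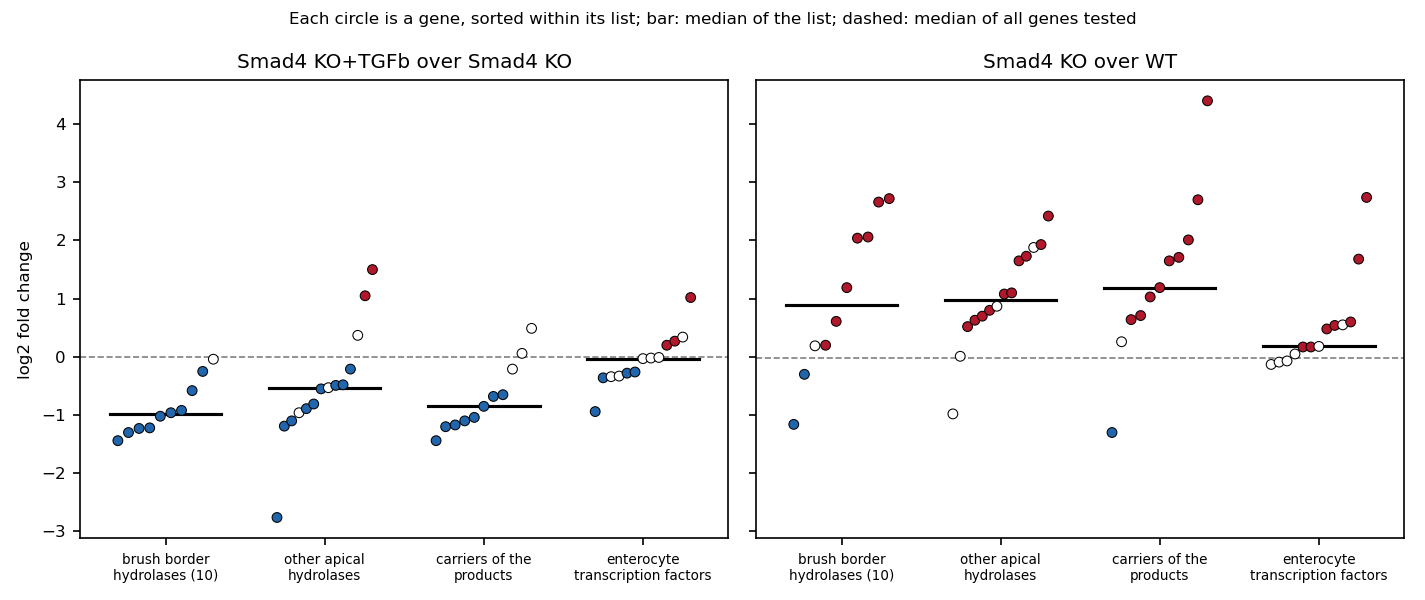
Log2 fold changes (y axis) of the 10 hydrolases and of 3 lists of related genes, 1 circle a gene, red where higher, blue where lower and white where not called. Lines are list medians (-0.99, -0.54, -0.85 and -0.03 in Smad4 KO+TGFb over Smad4 KO) and the dashed line is the median of all genes tested.

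Lists for age and villus position gave mixed values. Of 5 tested genes known to differ between suckling and adult gut, Arg2, an adult gene, and Fcgrt, the suckling Fc receptor, both rose in Smad4 KO over WT (log2 fold changes 1.77 and 2.04), and Ass1, a suckling gene, fell (-2.22, named after its value was seen). In Smad4 KO+TGFb over Smad4 KO, Arg2 fell by 1.63 and Fcgrt rose by 1.18 on the log2 scale, and the lysosomal galactosidase Glb1 fell by 0.32. The second gene to rise there was Prdm1, a repressor of adult genes in suckling gut (1.02, adjusted p = 0.023), so that 2 of the 5 rose and 2 fell. Of 7 villus tip genes 3 rose in Smad4 KO over WT and 0 fell (edgeR; 1 fell at an unadjusted p under 0.05 and 0 in DESeq2), namely Apoa4 (log2 fold change 2.53), Creb3l3 (2.74) and Krt20 (1.62). With TGF-β these 3 fell by 0.68, 0.36 and 0.20, and Ada and Nt5e rose (named after their values were seen). All 5 lower villus genes rose in Smad4 KO over WT, among them Nlrp6 (0.41), Reg1 (0.71) and Reg3g (1.56), and these 3 fell with TGF-β by 0.84, 1.56 and 0.70.

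Marker levels of several cell types differed between the groups. All 9 enterocyte markers were higher in Smad4 KO than in WT, with a median log2 fold change of 1.43, and with TGF-β 7 of them fell and 1 (Vil1) rose relative to Smad4 KO, with a median of -0.20. Their summed level was 7250 CPM in both Smad4 KO+TGFb libraries, 8830 to 8840 CPM in Smad4 KO and 2610 to 2630 CPM in WT. The 5 crypt base stem cell markers summed to 2550 to 2570 CPM in Smad4 KO+TGFb, 3850 to 3880 CPM in Smad4 KO and 6480 to 6500 CPM in WT. Cycling markers (5) summed to 1020 to 1030 CPM in Smad4 KO+TGFb, 1080 to 1090 CPM in Smad4 KO and 1600 to 1610 CPM in WT. All 5 genes of each of these lists were called lower in Smad4 KO than in WT. Paneth cell markers (6) summed to 2970 to 3060 CPM in Smad4 KO+TGFb, 3030 to 3180 CPM in Smad4 KO and 7840 to 7870 CPM in WT. Goblet cell markers (6) summed to 1840 to 1850 CPM in Smad4 KO+TGFb, 3530 to 3640 CPM in Smad4 KO and 4430 to 4440 CPM in WT. Single goblet genes differed in direction: in Smad4 KO over WT, Zg16 (2.16-fold) and Clca1 (1.15-fold) rose and 3 fell (Fcgbp, Spink4 and Tff3), and all 6 fell with TGF-β. Enteroendocrine markers (6) summed to 353 to 363 CPM in Smad4 KO+TGFb, 369 to 383 CPM in Smad4 KO and 905 to 917 CPM in WT. Tuft cell markers (5, with Il25 at 0) summed to 6.43 to 6.68 CPM in Smad4 KO+TGFb, 7.02 to 9.59 CPM in Smad4 KO and 14.9 to 16.2 CPM in WT. The sum for colonocytes was lowest in WT. The 5 colonocyte markers summed to 136 to 137 CPM in Smad4 KO+TGFb, 206 to 211 CPM in Smad4 KO and 62 to 63.7 CPM in WT. Slc26a3 made up most of that sum, with means of 110.8, 168.2 and 51.86 CPM in the same order. Car1 and Car4 each had at most 0.694 CPM in any library. Of the 4 colonocyte markers tested, 3 (Slc26a3, Aqp8 and Ceacam20) were called higher in Smad4 KO than in WT. With TGF-β, 2 of the 4 (Slc26a3 and Aqp8) were called lower than in Smad4 KO. What part the mix of cell types has in the levels of the hydrolases was not tested.

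Genes with the most similar pattern over the 6 libraries were sought among 10354 other genes, as the smallest distance between log2 levels centred on each gene's mean. Such nearness over 6 libraries in 3 groups is a description and carries no p. A distance also depends on how far the member itself varied. The distance of a member from a flat profile was 2.75 for Enpep but 0.59 for Mgam. Aldh1a1, a retinaldehyde dehydrogenase, was nearest to Enpep (distance 0.067), Syde2 to Mgam (0.073), Lrig3 to Mep1a (0.097), Ms4a10 to Mep1b (0.1) and Lypd8 to Alpi (0.126). Slc27a2, a fatty acid carrier, was nearest to Anpep (0.135), the peptidase Ggt1 to Treh (0.142), the amino acid carrier Slc6a19 to Lct (0.16), the esterase Bche to Sis (0.178) and the carboxypeptidase Cpn1 to Dpp4 (0.255). Lypd8 had 1425 and 1440 CPM in Smad4 KO+TGFb, 1370 and 1373 CPM in Smad4 KO, and 355 and 356.4 CPM in WT. Among the members themselves, Lct and Enpep were nearest to each other (0.143), as were Mep1b and Alpi (0.26), while the nearest member to Dpp4, Anpep, was 1.06 away.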

How the data were processed

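RNA-seq of 6 organoid libraries was analysed from 1 estimated count per Ensembl gene and library, which the authors deposited as whole numbers. The submitters' processing notes name StringTie 1.3.3b and HISAT2 2.1.0, with no role or order, and mouse GRCm38 (mm10) as the source of these deposited estimated counts. SAMtools 1.9 and FastQC 0.11.9 are named there too. Annotation release, strand setting, read length and rounding: not given in the sources used here. Values from 1 to 24 were multiples of 4 in 42.3% of cases, against 25% if spread evenly, so a fragment was taken to add about 4 units. That is an inference.

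Samples were grouped by their titles. Symbols came from a table of gene IDs and names that matched 31130 of 31227 IDs. Genes kept by filterByExpr (15503) were scaled by TMM and tested with edgeR 4.0.16 (R 4.3.3), glmQLFit and glmQLFTest, 2-sided, on all 6 libraries with group as the term and Benjamini-Hochberg adjustment over all genes. The SE was derived from the test, as the absolute log2 fold change divided by the square root of the F statistic. Positions and exon lengths are from GENCODE vM21 (GRCm38). CPM per kilobase divides by the union of a gene's exons. Promoters are from RefSeq (GRCm38.p6), with 9 of 10 members matched. Nearest patterns used log2(CPM + 0.5) and genes of at least 5 CPM on average. Exact words of 50 bases shared with annotated transcripts of other genes made up at most 2.92% of any member's (Dpp4, with Gm13561). They made up 2.4% in Alpi and 0.295% in Mgam. Copies that differ within a word, or that are not annotated, were not counted, so mixing with near-identical copies was not bounded. The fit was also run on simulated counts drawn with its own estimates of spread, so that run could not check those estimates.

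The members, lists, motifs and rules were chosen with earlier results of these data known. A few genes of these lists, and 1 motif, are not reported here and were left out of the counts and sums. Named were all members, Smad4, the 3 genes of each related list with the highest mean over all libraries, and the nearest pattern of each member. Genes named outside this rule were named for their calls or as markers. Alternatives were other scalings, filters, DESeq2 1.42.0, leaving out each library, a replicate block, the 4 libraries compared alone, and counts divided by 4.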

Additional observations from a re-analysis of the deposited data

How the results depend on the processing

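Of 450 alternative values of the 30 member fold changes, 440 kept their direction and side of the threshold, 7 no longer passed (Mgam and Mep1b, given above), 2 newly passed (Sis) and 1 reversed, Alpi in Smad4 KO+TGFb over Smad4 KO, at 0.01 with library totals only. Members called higher in Smad4 KO over WT numbered 6 to 7 and lower 2 when 1 library was left out, those lower in Smad4 KO+TGFb over Smad4 KO 8 to 9, and those higher and lower over WT 4 and 5. Genes called over all genes in Smad4 KO+TGFb over Smad4 KO numbered 1504 to 2304 without 1 library, against 2521, with 1504 without Smad4 KO+TGFb replicate 1, 1534 without Smad4 KO+TGFb replicate 2 and 1630 without Smad4 KO replicate 2. A library left alone in its group was assumed to vary like the other groups. Under upper quartile scaling the summed level of the members was 3736 CPM in Smad4 KO+TGFb, 6155 in Smad4 KO and 3146 in WT, and with library totals only it was 6042 in Smad4 KO and 3146 in WT. The cause was not tested. Libraries of the same replicate number shared no visible deviation from their group means (correlations 0.001 to 0.014). Whether they were cultured or prepared together was not stated in the labels. With a replicate block 7 members were higher and 2 lower in Smad4 KO over WT, 9 were lower and 0 higher in Smad4 KO+TGFb over Smad4 KO, and 4 were higher and 5 lower over WT, as without it, and the genes called numbered 4184, 2153 and 5667. Dividing by the longest transcript moved the level per kilobase of Sis in Smad4 KO to 465, against 371. Depth limited the members little, since the lowest had 591 units in a library.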
